A study of Homo sapiens with 4 samples.

Results

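The genes described here encode secreted ligands of the transforming growth factor-β (TGF-β) superfamily and the proteins that hold or neutralise them outside the cell. The rule that chose them is a list of gene names and uses no measured value, although it was written with earlier results of these data known. It holds the TGF-β genes *TGFB1*, *TGFB2* and *TGFB3*, the activin subunit gene *INHBA*, the activin antagonist genes *FST* and *FSTL3*, and the latent TGF-β binding protein genes *LTBP1*, *LTBP2*, *LTBP3* and *LTBP4*. These are 10 of the 63677 genes in the count table, and all 10 were among the 18252 genes with enough counts to be tested.

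The cells were LX-2, an established human cell line derived from hepatic stellate cells, the liver cells that turn into matrix-producing myofibroblasts after injury. One group received a mimic of the microRNA miR-6133-5p and the other a negative control mimic, called miControl, each at 20 nM with the lipid reagent Lipofectamine RNAiMAX. Recombinant human TGF-β1 (rhTGF-β1) at 5 ng/mL was given to both groups, and RNA was collected after 24 h of that treatment and sequenced from 2 libraries per group, replicates 1 and 2. Every library therefore came from a single cell line that carried a mimic and was exposed to rhTGF-β1, and libraries without rhTGF-β1 were not analysed here. The labels do not say whether the replicates were separate cultures, so that p-values measure only the spread between these libraries, which may be technical.

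TGF-β is made as a precursor whose propeptide stays bound to the growth factor and keeps it latent, and this latent complex is usually joined to a latent TGF-β binding protein that anchors it in the extracellular matrix. Release of the growth factor lets it bind its type II receptor, which recruits a type I receptor and activates SMAD transcription factors. Activin A, a dimer of the *INHBA* product, signals through related receptors, and follistatin and follistatin-like 3 bind it outside the cell and block it. In stellate cells TGF-β1 is the best known inducer of collagen synthesis.

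The RNA that carries the miR-6133 mature strands is shown because the mimic is what differs between the groups. The RefSeq hairpin lies at chr7:133290881-133290988 on the plus strand of GRCh38.p14 and reads, 5′ to 3′:
MIR6133 hairpin: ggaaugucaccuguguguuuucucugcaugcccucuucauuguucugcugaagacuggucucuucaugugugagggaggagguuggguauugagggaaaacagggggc

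RefSeq promoter windows of 300 bases on GRCh38.p14 were given for all 10 genes, 15 windows in total, and were searched on both strands for the TATA box, as TATAAA, the GC box, as GGGCGG, the AP-1 motif, as TGANTCA, and the cyclic AMP response element, as TGACGTCA. The last 150 bases of 4 of them are shown 5′ to 3′ on the gene's strand, because the transcripts of *TGFB1* and *TGFB2*, and those of *INHBA* and *FSTL3*, parted in the counts. The windows lie at chr19:41353873-41354022 (minus strand, *TGFB1*), chr1:218345236-218345385 (plus strand, *TGFB2*), chr7:41703041-41703190 (minus strand, *INHBA*) and chr19:676292-676441 (plus strand, *FSTL3*), and capitals mark the motif matches:
TGFB1: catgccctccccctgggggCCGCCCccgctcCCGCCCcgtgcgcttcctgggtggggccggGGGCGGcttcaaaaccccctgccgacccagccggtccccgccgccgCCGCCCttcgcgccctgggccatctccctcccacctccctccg
TGFB2: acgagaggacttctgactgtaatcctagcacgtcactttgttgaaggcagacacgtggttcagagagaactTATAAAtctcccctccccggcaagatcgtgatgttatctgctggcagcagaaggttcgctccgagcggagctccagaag
INHBA: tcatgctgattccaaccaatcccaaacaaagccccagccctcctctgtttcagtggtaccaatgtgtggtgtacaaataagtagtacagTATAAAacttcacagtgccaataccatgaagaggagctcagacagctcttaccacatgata
FSTL3: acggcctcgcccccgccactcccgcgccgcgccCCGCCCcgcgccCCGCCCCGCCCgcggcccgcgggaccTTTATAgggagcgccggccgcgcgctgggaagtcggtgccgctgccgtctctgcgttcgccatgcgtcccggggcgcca

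TATAAA was found in a window of 4 genes, at positions -29 to -24 relative to the annotated start in *TGFB2*, -30 to -25 in one window of *TGFB3*, -11 to -6 in *INHBA*, and, read on the other strand as TTTATA, -29 to -24 in *FSTL3*. It was present in 11.5% of all 35116 RefSeq promoter windows of this length. GGGCGG, present in 45.0% of all windows, was found for 6 genes, counting any window of a gene. It had 7 matches in *TGFB1*, 7 over the windows of *LTBP4* and 4 in *FSTL3*, and some neighbouring matches in *FSTL3* and *LTBP4* overlap. The percentages are shares of single windows, whereas a gene with several windows had more bases searched. TGANTCA (7.71% of all windows) was found only in *FST* and TGACGTCA (1.85%) only in *LTBP1* among the 10 genes. These matches describe letters of the windows, and RNA counts do not read promoter activity.

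Between 51862006 and 93811213 counts fell on genes in a library, the most in miR-6133-5p replicate 2, and levels are given as CPM, that is, counts scaled to a common total, with totals scaled by the TMM factors of edgeR. Of the stellate markers, *COL1A1*, *VIM* and *COL3A1* had the highest levels, whereas *DES* had at most 2, *LUM* at most 6 and *LRAT* at most 7 counts in any library. More than 3 counts in a library were found for 9 of the 10 stellate, 4 of the 6 hepatocyte, 3 of the 4 cholangiocyte, 3 of the 4 endothelial and 3 of the 5 macrophage and leukocyte markers. The stellate markers together reached 4765 to 5247 CPM with miControl against 2877 to 3199 CPM with miR-6133-5p. Most of this difference was in *COL1A1*, at 3112 and 2723 against 995 and 1133 CPM. *COL1A2*, at 57.1 and 57.4 against 25.8 and 27.3 CPM, was also lower without overlap. So were *COL3A1*, at 137.5 and 131 against 96.7 and 101 CPM, and *ACTA2*, at 41.6 and 34.8 against 10.03 and 9.78 CPM. *RGS5* was higher without overlap, at 1.83 and 2.53 against 3.38 and 3.16 CPM. *VIM*, at 1853 and 1776 against 2030.2 and 1555 CPM, and *PDGFRB*, at 43.6 and 39.9 against 38.3 and 47.4 CPM, overlapped between the groups. Markers of hepatocytes reached 2.03 to 2.63 CPM with miControl against 2.38 to 2.84 CPM with miR-6133-5p, those of cholangiocytes 3.70 to 4.55 and 6.79 to 7.30 CPM, those of endothelial cells 0.624 to 0.732 and 1.10 to 1.35 CPM, and those of macrophages and leukocytes 1.16 to 1.79 and 2.05 to 2.28 CPM, and *TTR*, *CFTR*, *LYVE1* and *CD163* were at 0 in every library. The part of these marker levels in the results for the 10 genes was not tested.

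Of the 10 genes, *TGFB2*, *INHBA*, *FST* and *LTBP2* were lower and *FSTL3* and *LTBP3* higher in the miR-6133-5p libraries. A gene was called lower or higher when its adjusted p-value was below 0.01 and its log2 fold change passed 0.8 (edgeR quasi-likelihood test, Benjamini–Hochberg adjustment over all tested genes). By this rule 4 of the 10 genes were called lower, where 5.54% of all tested genes were, and 2 were called higher, where 2.90% were. *INHBA* and *LTBP2* are among the genes that the study itself listed as lower from these libraries, so that their part of the count is not independent evidence. The study's lists used a looser fold cutoff, and the fall it gave for *LTBP2* did not reach 0.8 on the log2 scale. Scaling libraries by their totals alone moved the median of all tested genes from 0.03 to 0.19 and the share of lower genes among those called from 65.6% to 42.1%, and left 3 of the 10 genes called lower and 2 called higher. The remaining 4 genes, *TGFB1*, *TGFB3*, *LTBP1* and *LTBP4*, were not called, with adjusted p-values from 0.0725 to 0.847 in the same edgeR test. In 7 genes, the 6 that were called and *LTBP1*, both libraries of one group lay above both of the other, which was so for 64.4% of all tested genes. The log2 fold changes of the 10 genes had a median of -0.03, beside 0.03 over all tested genes, with 5 genes below 0 and 5 above. In bulk RNA, fewer cells that express a gene and less RNA per cell cannot be told apart.

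**Figure D1:**
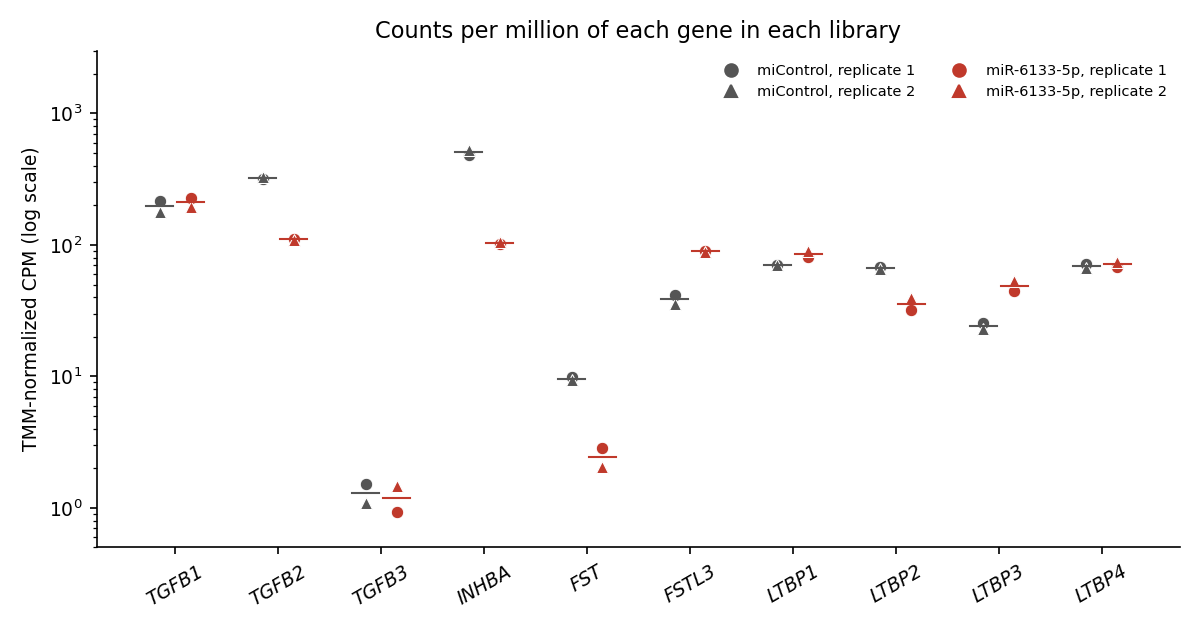
TMM-normalized CPM of each of the 10 genes (log scale) in each library, with circles for replicate 1, triangles for replicate 2, grey for miControl, red for miR-6133-5p and a line at each group mean (n = 2). *INHBA*, *TGFB2*, *FST* and *LTBP2* have both red points below both grey points, *FSTL3*, *LTBP1* and *LTBP3* have them above, and the points of *TGFB1*, *TGFB3* and *LTBP4* overlap.

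**Figure D2:**
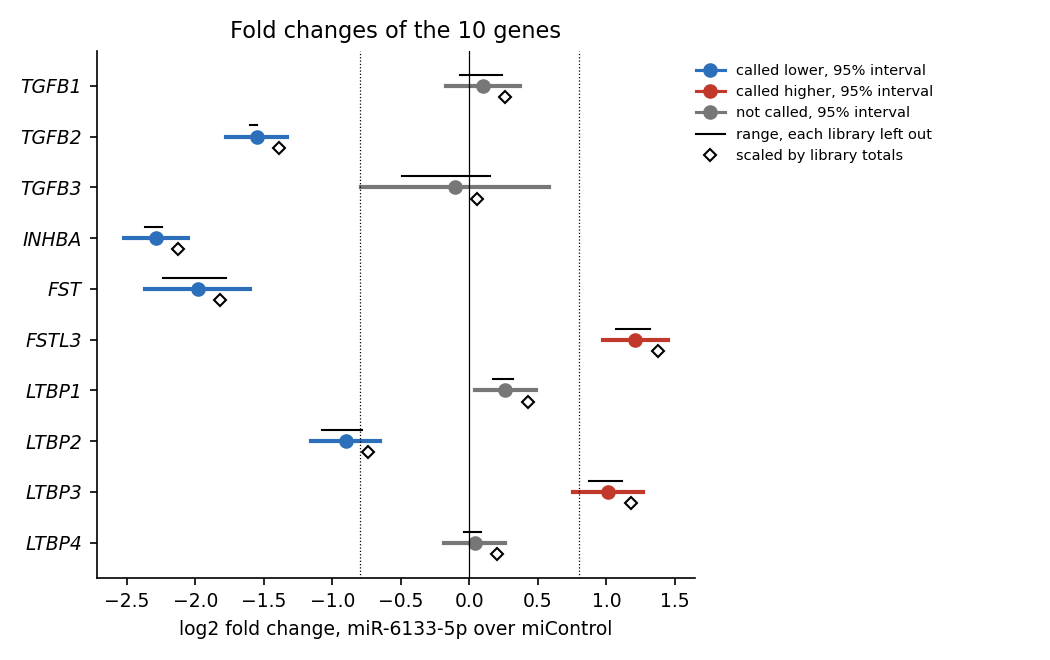
Log2 fold change of each gene, miR-6133-5p over miControl, as a point with its 95% interval from edgeR. The thin line above each point spans the values when any 1 library was left out, the open diamond is the value with libraries scaled by their totals, and dotted lines mark 0.8 in each direction, which the diamond of *LTBP2* does not reach.

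*TGFB1* (ENSG00000105329, GRCh37 chr19:41807492-41859827, minus strand) encodes TGF-β1, the isoform that was also added to the cells as protein, which RNA counts do not include. Its level was 217 and 178 CPM in miControl replicates 1 and 2 and 229 and 193 CPM in miR-6133-5p replicates 1 and 2. Replicate 1 was the higher library in both groups, and the groups overlapped. Means were 197.6 ± 27.9 CPM with miControl against 211 ± 25.7 CPM with miR-6133-5p (SD, n = 2), a log2 fold change of 0.10 with a 95% interval from -0.17 to 0.37 (standard error, SE, 0.125, adjusted p = 0.619, edgeR). The interval lies within 0.8 in either direction, and without one library the value ranged from -0.07 to 0.24. Antisense exons of *HNRNPUL1* overlap 6.59% of the exon bases of *TGFB1*.

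*TGFB2* (ENSG00000092969, GRCh37 chr1:218518678-218617961, plus strand), whose product needs the co-receptor betaglycan for efficient binding to the type II receptor, stood at 315 and 330.4 CPM in the miControl libraries and at 111 and 109 CPM in the miR-6133-5p libraries. Both miR-6133-5p libraries lay far below both miControl libraries, and replicates were close to each other. The mean fell from 323 ± 10.8 to 110.0 ± 1.58 CPM (SD, n = 2), 2.93-fold lower, with a log2 fold change of -1.55 (SE 0.103, 95% interval -1.78 to -1.33, adjusted p = 2.83e-07, edgeR). Leaving out one library at a time gave -1.60 to -1.55. Same-strand exons of *TGFB2-OT1* overlap 22.7% of its exon bases and antisense exons of *TGFB2-AS1* overlap 11.6%, so that part of its reads is uncertain, the latter if the counting ignored the strand.

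*TGFB3* (ENSG00000119699, GRCh37 chr14:76424440-76449354, minus strand) was scarce, at 75 and 59 counts with miControl against 61 and 145 counts with miR-6133-5p, or 1.53, 1.08, 0.933 and 1.46 CPM. By CPM the highest library was miControl replicate 1 and the lowest miR-6133-5p replicate 1, and the groups overlapped. Its log2 fold change of -0.10 had an interval from -0.79 to 0.58 (SE 0.318, adjusted p = 0.847, edgeR), the widest of the 10 genes. The sign depended on the scaling, since library totals gave 0.06.

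Because reads of one library share its scaling, ratios of counts within a library do not depend on the normalization between libraries. The log2 ratio of *TGFB2* to *TGFB1* counts was 0.54 and 0.89 in the miControl libraries and -1.05 and -0.83 in the miR-6133-5p libraries. The sign thus differed between the groups, with a difference of -1.65 on the log2 scale, or 3.14-fold, between the group means. An exact 2-sided permutation test gave p = 0.33, the smallest value that 2 libraries against 2 allow. For *TGFB3* to *TGFB1* the log2 ratios were -7.15, -7.36, -7.94 and -7.04, which overlapped between the groups (difference -0.24, exact permutation p = 1).

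Per kilobase of exon, *TGFB1* and *TGFB2* were at similar levels with miControl, at 60.5 ± 8.54 and 53.4 ± 1.78 CPM per kb, and apart with miR-6133-5p, at 64.7 ± 7.86 and 18.2 ± 0.261 CPM per kb. *TGFB1* took 56.0% and 49.9% of the summed per-kilobase level of the 3 TGF-β genes in the miControl libraries and 79.1% and 76.4% in the miR-6133-5p libraries. The share of *TGFB2* was correspondingly lower, 43.8% and 49.96% with miControl and 20.7% and 23.2% with miR-6133-5p, and that of *TGFB3* was between 0.190% and 0.362% in all 4 libraries. The sum of the 3 genes went from 119 and 109 CPM per kb to 88.8 and 77.4 CPM per kb, without overlap between the groups. With the length of the canonical transcript in place of all exon bases, the mean share of *TGFB1* was 56.1% with miControl and 79.8% with miR-6133-5p. The similar levels with miControl depended on the length used. By canonical transcript lengths *TGFB1*, at 78.2 and 64.0 CPM per kb, lay above *TGFB2*, at 53.7 and 56.3 CPM per kb.

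**Figure D3:**
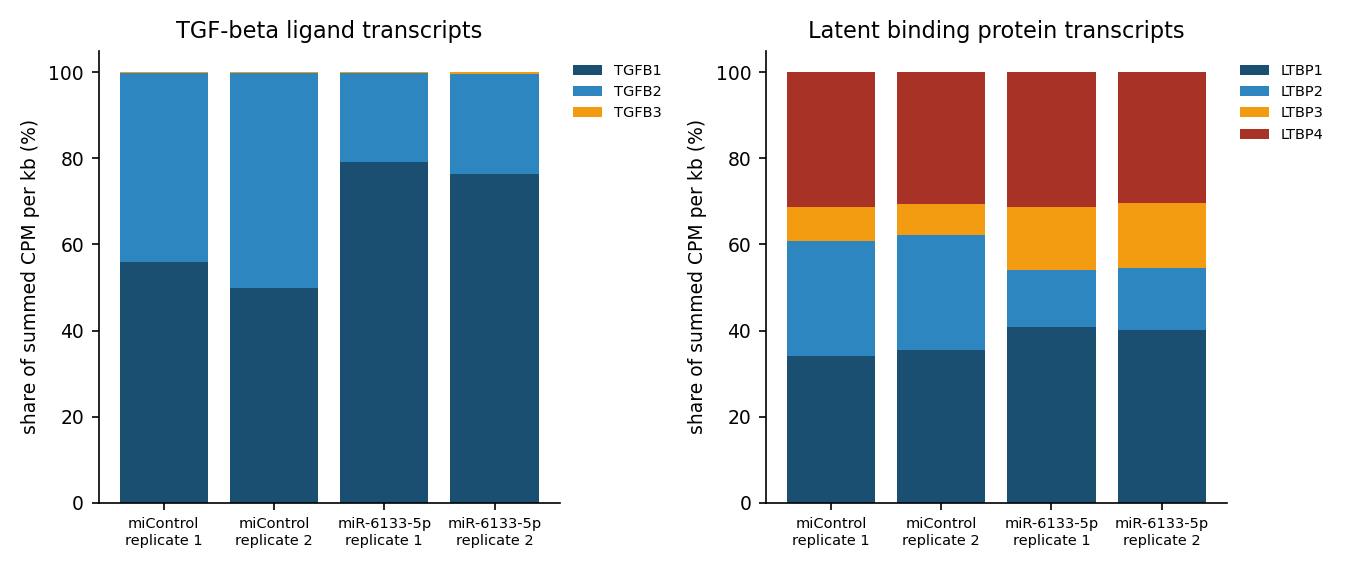
Share (%) of each gene in the summed CPM per kilobase of exon of the 3 TGF-β genes (left) and of the 4 latent TGF-β binding protein genes (right), 1 bar per library. The *TGFB1* share averages 52.9% with miControl and 77.8% with miR-6133-5p, and on the right *LTBP2* goes from 26.6% to 13.8% and *LTBP3* from 7.61% to 14.9%.

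*INHBA* (ENSG00000122641, GRCh37 chr7:41706766-41745432, minus strand) encodes the βA subunit, which forms activin A as a homodimer. It had 482 and 530.3 CPM in the miControl libraries and 102 and 106 CPM in the miR-6133-5p libraries, with no overlap and little spread within either group. Of the 10 genes it showed the largest change, from 506 ± 34.0 to 104 ± 2.86 CPM (SD, n = 2), 4.88-fold lower, with a log2 fold change of -2.29 (SE 0.109, 95% interval -2.52 to -2.05, adjusted p = 2.46e-08, edgeR). It lay between -2.37 and -2.24 when any 1 library was left out. Antisense exons of *INHBA-AS1* overlap 2.99% of its exon bases.

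By its level per kilobase, *INHBA* ranked first of the 10 genes with miControl, at 58.2 and 64.0 CPM per kb, although *TGFB1* at 66.6 and 54.5 CPM per kb could not be placed above or below it, and *TGFB2* at 52.1 and 54.6 CPM per kb overlapped with *TGFB1*. By the length of the canonical transcript *INHBA*, at 79.8 and 87.7 CPM per kb, stood above *TGFB1*, at 78.2 and 64.0 CPM per kb. *TGFB1* in turn stood above *TGFB2*, at 53.7 and 56.3 CPM per kb. With miR-6133-5p, *TGFB1* came first, followed by *FSTL3* at 29.5 ± 0.141, *TGFB2* at 18.2 ± 0.261 and *INHBA* at 12.5 ± 0.345 CPM per kb, and none of these neighbours overlapped. *LTBP1* at 11.6 ± 0.836 CPM per kb was next, and its higher library, at 12.1 CPM per kb, lay just below the lower *INHBA* library, at 12.3 CPM per kb. By canonical transcript lengths *LTBP4* came next instead, at 14.4 ± 0.903 CPM per kb, beside 13.1 ± 0.944 CPM per kb for *LTBP1*. *TGFB3* was the lowest in both groups, at 0.250 ± 0.0599 and 0.229 ± 0.0717 CPM per kb.

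The pattern of *INHBA* over the 4 libraries was compared with those of 9428 abundant genes with a symbol, as the Euclidean distance between log2 CPM values centred on each gene's mean. The 3 nearest were *TGFBR2* at a distance of 0.0822, *PRRX1* at 0.109 and *TIMP3* at 0.143. *TGFBR2* had 542 and 552 CPM with miControl against 109 and 112 CPM with miR-6133-5p, *PRRX1* had 18.1 and 18.3 against 3.49 and 3.60 CPM, and *TIMP3* had 843 and 839 against 173 and 164 CPM. All 3 are also genes that the study listed as lower from these libraries, and with only 4 libraries the likeness rests mainly on the size of the fall.

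*FST* (ENSG00000134363, GRCh37 chr5:52776456-52782964, plus strand) encodes follistatin, which wraps around activin and blocks both of its receptor sites. Its level was 9.84 and 9.33 CPM in the miControl libraries and 2.83 and 2.06 CPM in the miR-6133-5p libraries, which did not overlap. The fall from 9.59 ± 0.366 to 2.44 ± 0.546 CPM (SD, n = 2) was 3.96-fold, a log2 fold change of -1.98 (SE 0.177, 95% interval -2.37 to -1.60, adjusted p = 3.06e-06, edgeR). It rested on 484 and 508 counts with miControl and 185 and 204 counts with miR-6133-5p, and ranged from -2.24 to -1.77 without one library. No other annotated exon overlaps those of *FST*.

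The other antagonist gene moved the opposite way. *FSTL3* (ENSG00000070404, GRCh37 chr19:676392-683392, plus strand), which encodes a secreted follistatin-like protein that binds activin and myostatin, had 41.7 and 35.5 CPM with miControl against 89.7 and 89.0 CPM with miR-6133-5p. Both miR-6133-5p libraries lay above both miControl libraries. The mean rose from 38.6 ± 4.42 to 89.4 ± 0.429 CPM (SD, n = 2), 2.32-fold, with a log2 fold change of 1.21 (SE 0.110, 95% interval 0.97 to 1.45, adjusted p = 3.55e-06, edgeR). Tested against the fold threshold itself with edgeR's glmTreat, its adjusted p-value came just above 0.01 and the call was lost.

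*INHBA* was also set against each of its antagonist genes within a library. The log2 ratio of *INHBA* to *FST* counts was 5.61 and 5.83 with miControl and 5.17 and 5.68 with miR-6133-5p, so that the groups overlapped (difference -0.30, exact permutation p = 0.667), and the difference ranged from -0.55 to -0.04 when any 1 library was left out. *INHBA* had 11.6 and 14.95 counts per count of *FSTL3* in the miControl libraries and 1.13 and 1.19 in the miR-6133-5p libraries. This difference, -3.502 on the log2 scale or 11.3-fold, was far larger than the spread within groups, with an exact permutation p = 0.33, again the smallest possible. The 4 ratios described were chosen with earlier results of these data known, and their p-values cannot reach a threshold, with or without adjustment.

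**Figure D4:**
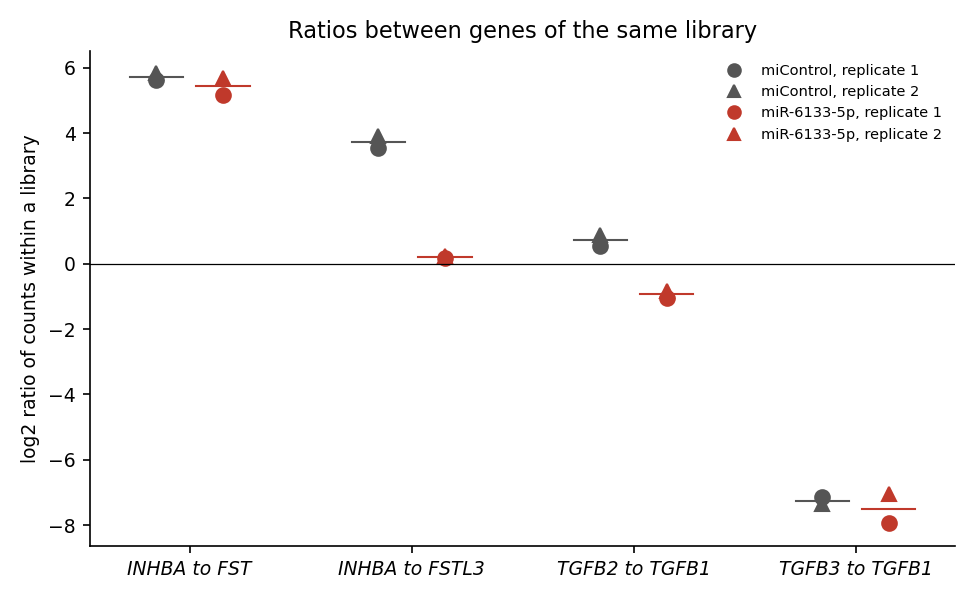
Log2 ratio of the counts of 2 genes of the same library, with circles for replicate 1, triangles for replicate 2, grey for miControl, red for miR-6133-5p and a line at each group mean (n = 2). The ratios of *INHBA* to *FSTL3* and of *TGFB2* to *TGFB1* are lower in both miR-6133-5p libraries, with differences of -3.502 and -1.65 between means, whereas those of *INHBA* to *FST* and *TGFB3* to *TGFB1* overlap.

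The 4 latent TGF-β binding protein genes did not move together. *LTBP2* (ENSG00000119681, GRCh37 chr14:74964886-75079081, minus strand) encodes the family member that binds microfibrils but not latent TGF-β itself. It was at 68.3 and 65.5 CPM in the miControl libraries and at 32.1 and 39.4 CPM in the miR-6133-5p libraries, without overlap. Its mean fell from 66.9 ± 1.98 to 35.7 ± 5.21 CPM (SD, n = 2), 1.87-fold lower, with a log2 fold change of -0.90 (SE 0.117, 95% interval -1.16 to -0.65, adjusted p = 7.19e-05, edgeR). The call was close to the fold threshold and was lost without miR-6133-5p replicate 1, at -0.78, and with library totals, at -0.74. It was also lost with glmTreat (adjusted p = 0.828, edgeR).

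*LTBP3* (ENSG00000168056, GRCh37 chr11:65306030-65326401, minus strand), one of the members that bind the latent TGF-β complex, had 25.7 and 22.9 CPM with miControl against 44.8 and 53.0 CPM with miR-6133-5p. The groups were apart by more than the spread within either. The level rose 2.02-fold, from 24.3 ± 1.99 to 48.9 ± 5.80 CPM (SD, n = 2), a log2 fold change of 1.01 (SE 0.119, 95% interval 0.76 to 1.27, adjusted p = 3.14e-05, edgeR), and it lay between 0.87 and 1.11 when any 1 library was left out. The lower end of its interval is inside 0.8, and with glmTreat the adjusted p-value was 0.265 (edgeR) and the call was lost.

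*LTBP1* (ENSG00000049323, GRCh37 chr2:33172020-33624576, plus strand), which binds all 3 latent TGF-β isoforms, stood at 71.0 and 70.8 CPM with miControl against 80.6 and 89.3 CPM with miR-6133-5p. Both miR-6133-5p libraries were the higher ones, but the log2 fold change of 0.26 (SE 0.103, 95% interval 0.04 to 0.48, adjusted p = 0.0725, edgeR) was not called. Library totals gave 0.43 with an adjusted p of 0.0058 in edgeR, still short of 0.8.

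*LTBP4* (ENSG00000090006, GRCh37 chr19:41098789-41135723, plus strand), which binds latent TGF-β1 and takes part in elastic fibre assembly, had 71.8 and 67.0 CPM with miControl against 68.1 and 74.5 CPM with miR-6133-5p. The groups overlapped, and the log2 fold change of 0.04 had an interval from -0.18 to 0.26 (SE 0.103, adjusted p = 0.823, edgeR).

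Summed per kilobase of exon, the 4 genes were at 28.3 and 27.1 CPM per kb with miControl and at 26.8 and 30.3 CPM per kb with miR-6133-5p, which overlapped. The overlap depended on the length used. With canonical transcript lengths the sums were 38.8 and 36.9 against 39.2 and 44.4 CPM per kb, without overlap. Within the sum per kilobase of exon, *LTBP2* went from 26.6% in both miControl libraries to 13.2% and 14.3%, and *LTBP3* from 7.89% and 7.33% to 14.5% and 15.2%. The share of *LTBP1* was 34.2% and 35.5% with miControl against 40.9% and 40.1% with miR-6133-5p, and that of *LTBP4* lay between 30.3% and 31.4% in all 4 libraries. By canonical transcript lengths the *LTBP4* share was 37.3% and 36.6% against 35.0% and 33.8%, lower with miR-6133-5p without overlap. With canonical transcript lengths the mean share of *LTBP3* was 13.3% with miControl and 24.2% with miR-6133-5p, since its annotated exons span 11521 bases and its canonical transcript 4833. Gene counts do not separate isoforms, and a change of isoform would alter these per-kilobase values.

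Genes that act on or beside the 10 genes were taken from 5 lists, and their counts stand beside the 5.54% of all tested genes called lower and the 2.90% called higher. Among 29 other ligand genes of the superfamily, 11 were tested, 1 was called lower and 1 higher, with a median log2 fold change of 0.03. *GDF11*, which signals through activin receptors, fell from 51.1 ± 2.84 to 28.9 ± 1.21 CPM, or a log2 fold change of -0.82 (SE 0.106, adjusted p = 6.81e-05, edgeR), a call lost with library totals. *BMP4*, a bone morphogenetic protein, rose from 3.503 ± 0.524 to 6.29 ± 0.270 CPM (log2 fold change 0.84, SE 0.169, adjusted p = 0.00204, edgeR). Of 19 other extracellular antagonist genes, 10 were tested, and only *FSTL1*, a secreted follistatin-like glycoprotein, was called, at 1449 ± 16.7 and 798 ± 16.8 CPM (log2 fold change -0.86, SE 0.0992, adjusted p = 2.69e-05, edgeR), also lost with library totals, under which *NOG*, the noggin gene, was called higher (named after its values were seen). The median of the 10 was -0.41.

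The list of matrix anchors and activators of the latent complex held 20 genes, of which 19 were tested, 7 were called lower (5 with library totals) and 3 higher, beside 5.54% and 2.90% of all tested genes, with a median of -0.48. *FURIN*, the protease that cleaves the TGF-β precursor, fell from 220.1 ± 14.5 to 75.4 ± 4.08 CPM (log2 fold change -1.55, SE 0.108, adjusted p = 4.27e-07, edgeR). *LRRC32*, which tethers latent TGF-β at the cell surface, fell from 1.07 ± 0.159 to 0.294 ± 0.103 CPM (-1.88 on the log2 scale, SE 0.413, adjusted p = 0.00381, edgeR). The rises were led by *MMP9*, a gelatinase, from 0.339 ± 0.0382 to 1.34 ± 0.334 CPM (log2 fold change 1.99, SE 0.367, adjusted p = 0.00116, edgeR). *TGM2*, the transglutaminase that cross-links binding proteins to the matrix, followed, from 7.97 ± 1.22 to 19.4 ± 2.42 CPM (log2 fold change 1.29, SE 0.144, adjusted p = 2.08e-05, edgeR). *LRRC32* and *MMP9* were scarce, and their changes rest on few reads. The other called genes, named after their values were seen, were *ITGAV*, *ITGB3*, *THBS1*, *FN1* and *MMP14*, all lower, and *PLAU*, higher.

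All 14 receptor genes were tested, with 5 called lower (4 with library totals), 1 higher and a median of -0.11, beside the same 5.54% and 2.90% (with library totals, 709 of all 18252 tested genes were called lower and 977 higher). *TGFBR2*, the type II TGF-β receptor gene, and *BMPR2*, its bone morphogenetic protein counterpart, had the largest falls, of -2.31 (SE 0.1049, adjusted p = 1.98e-08, edgeR) and -1.64 (SE 0.141, adjusted p = 2.12e-06). *TGFBR3*, which encodes betaglycan, the co-receptor of TGF-β2 named above, rose from 25.1 ± 0.763 to 70.7 ± 5.35 CPM, or a log2 fold change of 1.49 (SE 0.108, adjusted p = 5.08e-07, edgeR). *ENG*, *ACVR1* and *BMPR1B*, named after their values were seen, were the other called genes, all lower. Among 13 transcripts that TGF-β commonly induces, all tested, 3 were called lower and none higher (0 also in the same test with library totals), and the median was -0.51. *CTGF*, a matricellular protein gene, had a log2 fold change of -2.31 (SE 0.114, adjusted p = 2.87e-08, edgeR) and *ANGPTL4* one of -1.11 (SE 0.179, adjusted p = 0.000408). *TGFBR2* and *CTGF*, and *ITGAV*, *ITGB3* and *MMP14* of the anchors and activators, are among the genes that the study listed as lower from these libraries. They are therefore not independent evidence for their lists. The groups did not overlap in 9 of the 11 ligand genes, 8 of the 10 antagonist genes, 18 of the 19 anchor and activator genes, 10 of the 14 receptor genes and 11 of the 13 induced transcripts, beside the 64.4% of all tested genes given above.

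**Figure D5:**
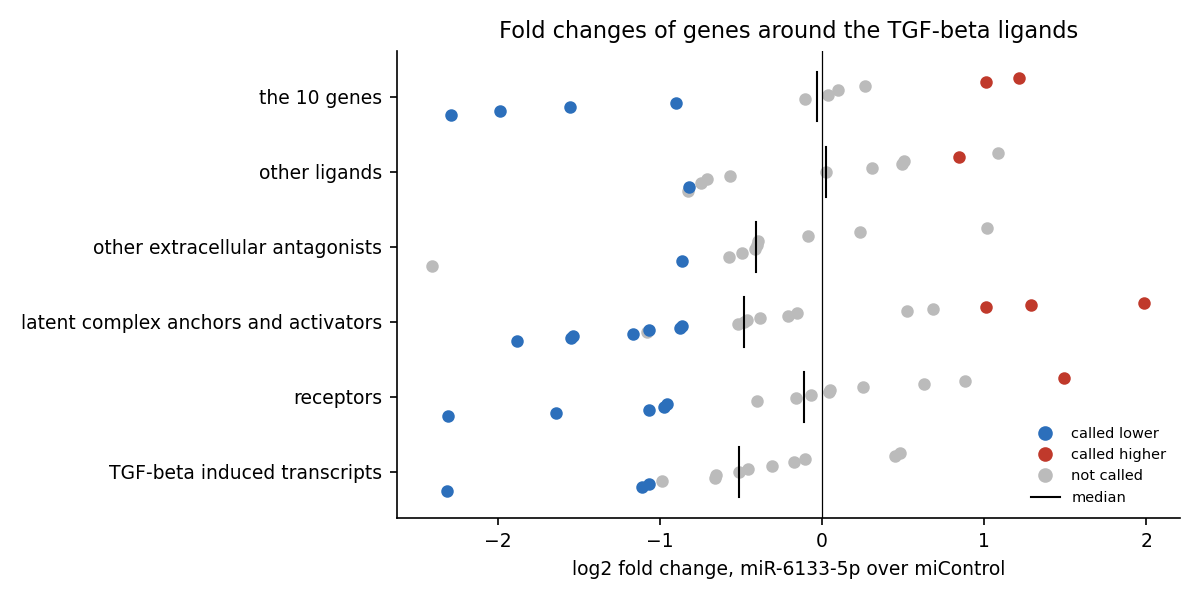
Log2 fold changes, miR-6133-5p over miControl, of the 10 genes and of the tested genes in each of the 5 lists, 1 point per gene, with blue for called lower, red for called higher, grey for not called and a bar at each median. Medians run from -0.51 for the TGF-β induced transcripts to 0.03 for the other ligands, and called genes in both directions are seen among the 10 genes, the other ligands, the anchors and activators and the receptors.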

How the data were processed

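RNA of 4 LX-2 libraries was sequenced as read pairs from a strand-marking mRNA kit. The authors mapped the reads to GRCh37 with STAR (2.5.3a per the submitters' processing notes, which also name featureCounts of Subread 1.6.4) and deposited raw counts per Ensembl gene, whole numbers without normalization. The annotation release and the strand setting of the counting are not given in the sources used here. Between 1.68 and 1.70 counts were recorded per uniquely mapped pair, so that a pair could count more than once.

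Counts were filtered with filterByExpr, TMM-normalized and fitted with glmQLFit in edgeR 4.0.16 (R 4.3.3) without a block, and 2-sided quasi-likelihood p-values were adjusted by the Benjamini–Hochberg procedure over 18252 genes. The thresholds (0.01 and 0.8) were those of the study's methods. A count of 3 was at most 0.0610 CPM. Standard errors were derived from the F statistic. Gene positions and exon lengths were read from GENCODE as lifted to GRCh37, not necessarily the annotation behind the counts. It gave an exon length for 55665 genes of the count table, and CPM per kilobase was computed for the 10 genes alone.

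The 10 genes, the lists and the ratios were chosen with earlier results of these data known. Named besides the 10 were the 2 called genes of each list with the largest fall, the 2 with the largest rise, and the 3 genes nearest to the one with the largest change. No shared effect of the replicate number was seen, since deviations of same-numbered libraries correlated at r = 0.0490 over 18252 genes. This cannot show whether same-numbered libraries were prepared together, which the labels do not say. Replicates differed by more than counting noise (chi-square per degree of freedom 14.3 and 50.2), so none was counted as a duplicate. Alternatives were RLE factors, library totals, DESeq2 1.42.0, no filter, at least 10 counts in every library, a replicate block, thinned counts, each library left out, glmTreat and an adjusted p-value of 0.05, and the canonical transcript length was added after seeing the data. The fit was tested on simulated data with known changes. Scripts ran in Python 3.11.15 with numpy 2.4.6, pandas 2.3.3 and scipy 1.17.1, and plots in matplotlib 3.10.9. FPKM values were not used here. A called gene of the lists is not reported by name here.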

Additional observations from a re-analysis of the deposited data

How the results depend on the processing

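*TGFB2*, *INHBA* and *FST* kept their direction and call under every alternative run, and *FSTL3* and *LTBP3* under all but glmTreat. Without one library, the log2 fold changes ranged from -0.070 to 0.24 for *TGFB1*, -0.49 to 0.15 for *TGFB3*, -0.042 to 0.085 for *LTBP4* and -1.08 to -0.78 for *LTBP2*. For *LTBP2* the call was lost without miR-6133-5p replicate 1, which left 3 rather than 4 genes called lower. Over all tested genes these fits called 770 to 1249 lower and 293 to 587 higher, the fewest of both without miControl replicate 1, and each left 1 library in an arm, assumed to vary like the other group. Within-library log2 differences ranged from -0.55 to -0.04 for *INHBA* to *FST*, -3.69 to -3.32 for *INHBA* to *FSTL3*, -1.83 to -1.47 for *TGFB2* to *TGFB1* and -0.68 to 0.21 for *TGFB3* to *TGFB1*. Library totals gave 0.058 for *TGFB3* and -0.74 for *LTBP2*, 709 genes called lower and 977 higher, 0 other ligands and 0 other antagonists called lower (1 of each with TMM) and 1 antagonist called higher. An adjusted p-value of 0.05 also gave 1 antagonist called higher. With glmTreat the log2 fold changes, 1.21 for *FSTL3*, -0.90 for *LTBP2* and 1.01 for *LTBP3*, are those of the first fit but were not called, so that 0 of the 10 genes were called higher, and 326 and 80 of all tested genes were called, because it tests against the threshold itself. Canonical transcript lengths gave shares of 79.8% for *TGFB1* and 19.8% for *TGFB2* with miR-6133-5p and 0.299% for *TGFB3* with miControl. With the replicate block, though no shared effect of the replicate number was seen, *INHBA* was at -2.29 and 4 genes were called lower and 2 higher, and all tested genes gave 1130 lower and 642 higher. The cause of the other shifts was not tested. *TGFB3* had 59 to 145 counts per library, and the part of depth or of replicate spread in its shifts was not tested.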

Other observations

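Antisense genes beside 3 of the 10 genes were also counted, and are named here after their values were seen. *TGFB2-AS1* had 775 and 778 counts with miControl against 254 and 632 counts with miR-6133-5p, or 15.8, 14.3, 3.88 and 6.38 CPM. Both miR-6133-5p libraries were below both miControl libraries, with a log2 fold change of -1.54 (SE 0.190, adjusted p = 4.99e-05, edgeR quasi-likelihood test), beside -1.55 for *TGFB2*. *INHBA-AS1* had 74 and 68 counts with miControl and 9 and 46 counts with miR-6133-5p, or a log2 fold change of -2.12 (SE 0.457, adjusted p = 0.00339, edgeR), beside -2.29 for *INHBA*. *TGFB3-AS1* had 1 to 4 counts and was not tested. Each shares exon bases with its partner on the other strand, and where the counting ignored the strand the reads of the pair cannot be told apart.

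Activin B is made from the βB subunit, encoded by *INHBB*, which is named here after its values were seen. It had 4.11 and 4.15 CPM with miControl and 5.08 and 5.12 CPM with miR-6133-5p. The miR-6133-5p libraries were the higher ones, but the log2 fold change of 0.30 (SE 0.159, 95% interval -0.04 to 0.65, adjusted p = 0.173, edgeR) was not called. Of the activin receptor genes, also chosen after their values were seen, *ACVR1B*, *ACVR1C*, *ACVR2A* and *ACVR2B* had log2 fold changes of 0.05, 0.88, -0.40 and 0.04 and were not called, whereas *ACVR1* was called lower at -1.07.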
